A study of Homo sapiens with 3 samples.

Results

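The mRNAs of 10 genes of the translation machinery and its surroundings were taken by name from the 57820 genes in both deposited tables. They are the elongation factor genes EEF1A1, EEF1B2, EEF1D, EEF1G and EEF2, together with TPT1, PABPC1, PABPC4, NAP1L1 and GNB2L1, the older symbol of RACK1. All 10 had at least 20 counts over both libraries and entered the comparison with the 10811 genes that did. RNA was co-precipitated from ACHN, an established human renal carcinoma line that stably expressed MEX3A-Flag, an RNA-binding protein with KH domains carrying a Flag tag. Cells were fixed with 0.3% formaldehyde, and glycine at 0.125 M ended the fixation. The anti-Flag precipitate and the IgG precipitate, the background of the method, had 1 library each, and the input sample was not analysed here. Every labelled sample carried the transgene, and its promoter, and whether the line was 1 clone, were not stated in the labels. With 1 library per antibody no difference has a replicate check, and the intervals below cover counting error only.

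The genes belong to a class known as TOP mRNAs. A TOP mRNA begins at its cap with a C that is followed by an unbroken run of C and T bases (U in the RNA), the 5′ terminal oligopyrimidine tract. The class holds the mRNAs of ribosomal proteins and of most elongation factors, and its translation is switched on and off together through mTORC1. The RNA-binding protein LARP1 holds the cap and the tract when mTORC1 is inactive.

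The start of each gene is shown first, because this tract is what defines the class. Of the 10 genes, 7 were matched by Ensembl identifier or symbol to the RefSeq promoter table (GRCh38.p14), and no start was used for EEF1D, PABPC1 and PABPC4. Each line gives 10 bases before and 20 bases from the annotated start, read 5′ to 3′ along the transcript. Capitals mark the run of C and T bases that begins at the first transcribed base. The deposited counts were made on another build, so these coordinates place the sequences only.
EEF1A1, chr6:73521013-73521042, minus strand: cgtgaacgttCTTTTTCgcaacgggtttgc
EEF2, chr19:3985444-3985473, minus strand: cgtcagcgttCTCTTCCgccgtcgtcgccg
TPT1, chr13:45341164-45341193, minus strand: ctgagtcggcCTTTTCCgcccgctcccccc
NAP1L1, chr12:76084666-76084695, minus strand: gctcttgggtCTTTTTTagcgccatctgct
GNB2L1 (RACK1), chr5:181243887-181243916, minus strand: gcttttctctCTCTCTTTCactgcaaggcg
EEF1B2, downstream start, chr2:206159885-206159914, plus strand: ctcttcgggtCCTTTTTCCTCTCTTCagcg
EEF1B2, upstream start, chr2:206159599-206159628, plus strand: aagtggccccagcctcgaggccgggcgtct
EEF1G, chr11:62573872-62573901, minus strand: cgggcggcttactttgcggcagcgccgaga

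A TOP-type start was defined as a C at the first base followed by at least 4 bases that were each C or T, read on the transcribed strand at that position only. It was present in 6 of the 7 matched genes. The run was 7 bases long in EEF1A1, EEF2, TPT1 and NAP1L1, 9 in GNB2L1 and 16 at the downstream start of EEF1B2. The table lists a second EEF1B2 start 286 bases upstream that begins with A. The annotated start of EEF1G also begins with A, and a run of 4 C and T bases follows from its second base. Among all 35116 starts listed there, 4.07% were of this type, and 5.14% of 27305 genes had at least 1. Among cytosolic ribosomal protein genes that entered and were matched, 47 of 63 (74.6%) had such a start. A match describes the annotated sequence and does not show which start was used in these cells.

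The libraries differed in depth and make-up. Counts, rounded from the authors' estimated counts per gene, totalled 3412864 in the IgG library and 5498124 in the Flag library, and mitochondrially encoded RNAs took 8.93% and 33% of them. CPM values are counts over these totals, and the ratio is Flag CPM over IgG CPM with an exact 95% Clopper-Pearson interval. Enriched means an interval whose lower end exceeded 2, and depleted one whose upper end was under 0.5. The 10 most abundant genes of each library held 52.79% of the IgG counts and 42.76% of the Flag counts. The median gene tested had a ratio of 1.93, a log2 ratio of 0.95. With totals that left out mitochondrial RNAs and the 10 most abundant genes over both libraries, that log2 ratio was 0.71. The separate part of either group in the median was not tested. A ratio is read here against that median as well as against 1. TMM scaling, which aligns the bulk of genes, moved every log2 ratio by -0.78. For the cell type, all 7 renal epithelial markers had counts in the Flag library and 6 of 7 in the IgG library (sums 5065 and 2175), while CD3D, CD3E, PTPRC, CDH5 and DCN had 0 counts in both. COL1A1, listed as a fibroblast marker, had 637 IgG and 875 Flag counts, and its bearing on the ratios was not tested.

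PABPC1 stood out among the 10, with a ratio of 5.57, and TPT1 followed at 2.63. These were the 2 members called enriched of 10 (20%), where 28.7% of all genes tested were called enriched and 1.32% depleted, and no member was called depleted. Among the 327 genes with a mean TPM of at least 100, 33.9% were called enriched and 57 (17.4%) depleted, with a median log2 ratio of 0.19. TPM is the authors' abundance value, scaled by effective transcript length to a common total. The members' median log2 ratio was 0.52, against 0.95 for all genes tested. Of the 10 ratios, 4 lay above the median gene and 6 below it. With TMM scaling PABPC1 was the 1 enriched member (12% of genes enriched, 6.12% depleted). With the authors' TPM, called past 2-fold without an interval, 3 members were enriched, with GNB2L1 as the third, and none was depleted (44.2% of genes enriched, 6.59% depleted).

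**Figure D1:**
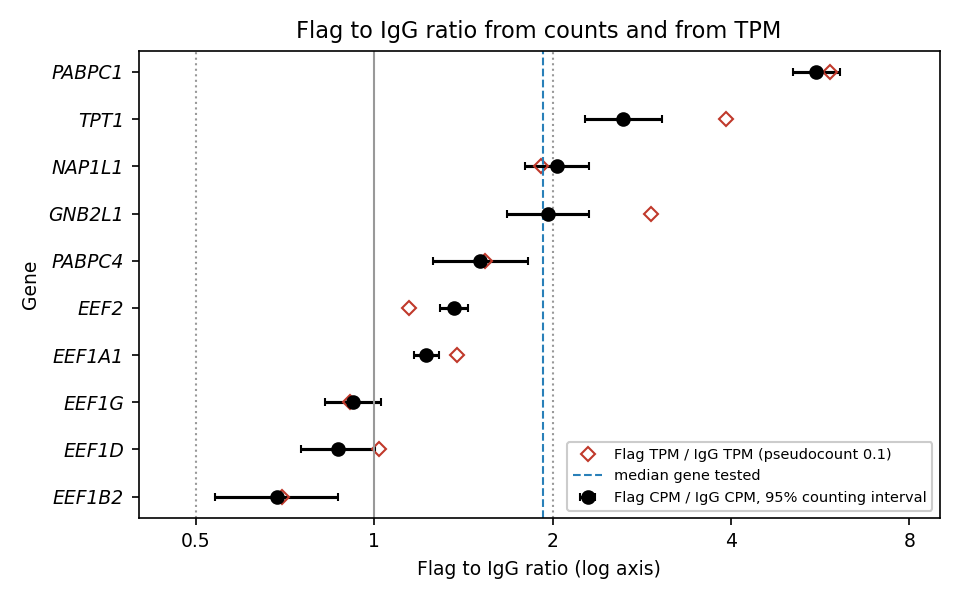
Flag to IgG ratio of each gene on a log axis, from counts (black points, bars show the 95% counting interval) and from TPM (open diamonds), with 1 library per group. Dotted lines mark 0.5 and 2 and the dashed line marks the median gene at 1.93; PABPC1 (5.57) and TPT1 (2.63) have intervals wholly above 2, and EEF1B2 (0.684) is lowest.

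PABPC1 encodes the main cytoplasmic poly(A)-binding protein, which coats the poly(A) tail and contacts the cap-binding complex. It had 539 counts in the IgG library and 4837 in the Flag library, or 157.9 and 879.8 CPM. Its ratio was 5.57 (5.10 to 6.10), at percentile 86.2 of all genes tested, and 3.25 (2.97 to 3.56) with TMM scaling. By TPM it went from 198 to 1163, a ratio of 5.87. The call was kept under all 13 alternatives run, the 4-fold threshold included. Some of them, such as the 1.5-fold threshold and the changed count filters, could not have removed it.

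PABPC4 encodes a second cytoplasmic poly(A)-binding protein with the same domain plan. It had 168 IgG and 408 Flag counts, and its ratio was 1.51 (1.26 to 1.82) with total counts but 0.879 (0.733 to 1.06) with TMM scaling. Ratios of ratios between genes of the same libraries do not depend on how the libraries are scaled, though the authors' effective lengths can move them. The PABPC1 ratio was 3.70 times that of PABPC4 (3.0 to 4.53), so the paralogs differed beyond counting error.

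TPT1 encodes the translationally controlled tumour protein, a small abundant protein whose mRNA is a classical TOP mRNA. It had 221 IgG counts and 936 Flag counts. The ratio was 2.63 (2.27 to 3.06), at percentile 62.6. TMM scaling gave 1.53 (1.32 to 1.78), median-of-ratios scaling 1.52, and totals that left out mitochondrial RNAs and the 10 top genes 2.23, and the call was lost with each of them. TPM gave 3.93. PABPC1 exceeded TPT1 by a factor of 2.12 (1.78 to 2.52) by counts and 1.49 by TPM.

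By counts, NAP1L1 and GNB2L1 lay close to the median gene. NAP1L1 encodes a histone chaperone, and its mRNA had 332 IgG and 1088 Flag counts, a ratio of 2.03 (1.80 to 2.31) at percentile 52.6. GNB2L1 encodes RACK1, a WD-repeat scaffold on the small ribosomal subunit. It had 209 IgG and 660 Flag counts, a ratio of 1.96 (1.68 to 2.3) at percentile 50.9. The GNB2L1 ratio was 0.964 times that of NAP1L1 (0.787 to 1.18), an interval that holds 1. By TPM the ratios were 2.93 for GNB2L1 and 1.91 for NAP1L1, a factor of 1.53 in favour of GNB2L1. Both intervals held 2, so neither gene was called with total counts. Both were called at a threshold of 1.5-fold, where 39.99% of all genes tested were called enriched. Both were also called with totals over protein-coding genes only, where NAP1L1 had a ratio of 2.69 and GNB2L1 of 2.59. Those totals called 39.54% of all genes tested enriched.

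EEF1A1 and EEF2 were the most abundant members by counts in the IgG library and had similar ratios. EEF1A1 encodes eEF1A, the GTPase that delivers aminoacyl-tRNA to the ribosome. It had 2494 IgG counts and 4917 Flag counts, and its ratio was 1.22 (1.17 to 1.29) with total counts and 0.714 (0.680 to 0.749) with TMM scaling. EEF2 encodes the GTPase that moves the ribosome along the mRNA by a codon. It had 1937 IgG and 4250 Flag counts, and its ratio was 1.36 (1.29 to 1.44) with total counts and 0.794 (0.752 to 0.838) with TMM scaling. The direction of both against 1 thus depended on the scaling, while both lay below the median gene, at percentiles 30.3 and 34.9. Their log2 ratios of 0.29 and 0.45 lay above the median of 0.19 of the 327 genes with a mean TPM of at least 100. By counts EEF2 exceeded EEF1A1 by a factor of 1.11 (1.03 to 1.20). By TPM the order turned, with ratios of 1.38 for EEF1A1 and 1.14 for EEF2, a factor of 0.828.

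The 3 subunits of eEF1B, the complex that reloads eEF1A with GTP, had the lowest ratios of the 10. EEF1B2 encodes a catalytic exchange subunit and had 137 IgG and 151 Flag counts, a ratio of 0.684 (0.539 to 0.869). EEF1D encodes the other catalytic subunit and had 329 IgG and 460 Flag counts, a ratio of 0.868 (0.752 to 1.00). EEF1G encodes the structural subunit and had 559 IgG and 829 Flag counts, a ratio of 0.921 (0.826 to 1.03). They lay at percentiles 10.1, 17.1 and 19.0 of all genes tested. With TMM scaling the ratios were 0.399 (0.314 to 0.506) for EEF1B2, 0.506 (0.438 to 0.585) for EEF1D and 0.537 (0.482 to 0.599) for EEF1G. None was called depleted, though the upper end of EEF1B2 was only just over 0.5. Summed, the 3 subunits had a ratio of 0.872 (0.804 to 0.946).

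Within eEF1B the intervals of the differences were wide. EEF1D over EEF1B2 gave a factor of 1.27 (0.958 to 1.68) and EEF1G over EEF1D 1.06 (0.884 to 1.27; 0.892 by TPM), and both intervals held 1. EEF1G exceeded EEF1B2 by 1.35 (1.03 to 1.75). Against EEF1A1, the GTPase they serve, all 3 were lower. The factors were 0.559 (0.438 to 0.714) for EEF1B2, 0.709 (0.609 to 0.826) for EEF1D and 0.752 (0.668 to 0.848) for EEF1G, and no scaling of the libraries can change them. By TPM they were 0.506, 0.739 and 0.66.

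**Figure D2:**
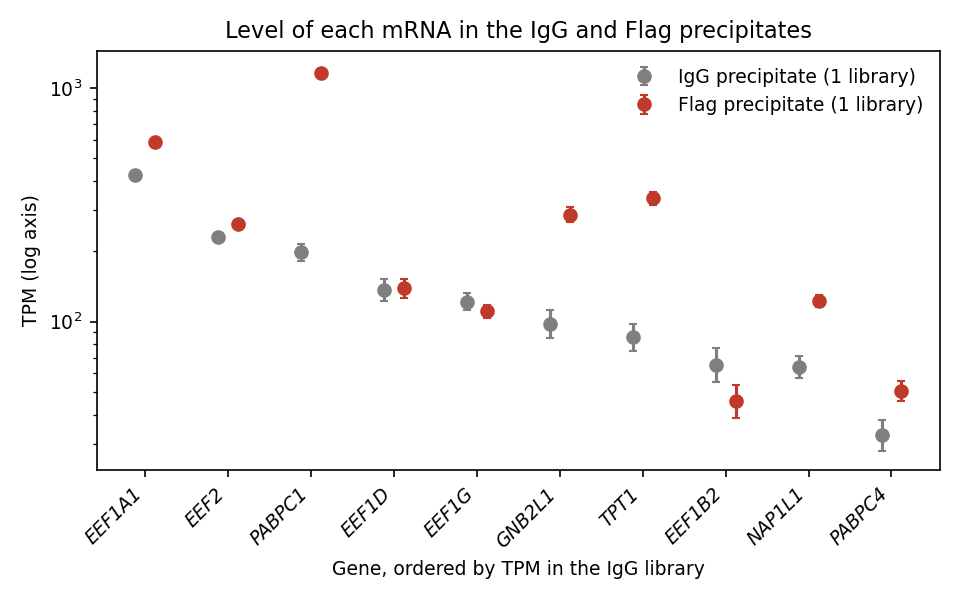
TPM of each gene on a log axis in the IgG library (grey) and the Flag library (red), ordered by the IgG value; bars show 95% Poisson counting intervals with effective length taken as fixed, and each group is 1 library. PABPC1 goes from 198 to 1163 TPM and passes EEF1A1 by TPM but not by counts, while EEF1B2 goes from 65.5 to 45.7 TPM.

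Levels were compared between genes by TPM, a per-length scale. In the IgG library the order began with EEF1A1 at 424 TPM, EEF2 at 230.0 and PABPC1 at 198, whose counting intervals did not overlap. EEF1D (136), EEF1G (121), GNB2L1 (98.0), TPT1 (85.9), EEF1B2 (65.5) and NAP1L1 (63.9) followed, and each overlapped its neighbour in this stretch of the order. PABPC4, at 32.8 TPM, was below all the others.

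The order changed in the Flag library. PABPC1 came first at 1163 TPM, rank 40 among all genes against rank 136 in the IgG library, and EEF1A1 second at 586. TPT1 (338) and GNB2L1 (287) came next and passed EEF2 (263), whose interval overlapped that of GNB2L1. EEF1D (139) overlapped NAP1L1 (122), which overlapped EEF1G (111). PABPC4 (50.4) and EEF1B2 (45.7) were lowest and overlapped. By counts EEF1A1 stayed above PABPC1 in the Flag library (4917 against 4837). EEF2 (4250) likewise stayed above TPT1 (936) and GNB2L1 (660). The authors' lengths in that library were 1698.5 bases for EEF1A1, 935 for PABPC1 and 599 for GNB2L1. The order by TPM rests on such lengths, which were not tested. TPM was higher in the Flag library for 8 of the 10 genes and CPM for 7, with EEF1D on opposite sides of 1 (TPM ratio 1.02, CPM ratio 0.868).

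The TPM and CPM ratios parted where the estimated transcript length differed between the libraries. The effective length of TPT1 was 744.9 bases in the IgG library and 499 bases in the Flag library, a factor of 0.670. That of GNB2L1 went from 618 to 414 bases, also a factor of 0.670. Their TPM ratios were 3.93 and 2.93, in each case 1.49 times the CPM ratio. EEF2 went the other way, from 2439 to 2912 bases, and its TPM ratio of 1.14 was 0.839 times its CPM ratio. The authors' length is an average over a gene's annotated transcripts weighted by their estimated abundance. Across all genes tested the quartiles of the log2 change in effective length were -0.15 and 0.38, and 7 of the 10 members were shorter in the Flag library against 3959 of 10811 genes. Whether other isoforms or read assignment lay behind these lengths was not tested.

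**Figure D3:**
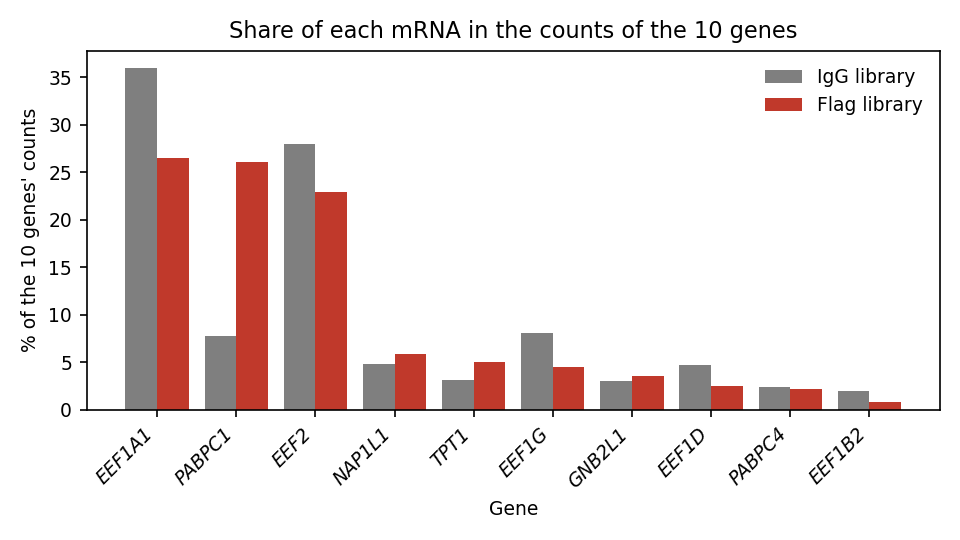
Share of each gene in the summed counts of the 10 genes, in percent, in the IgG library (grey bars) and the Flag library (red bars). EEF1A1 holds 36.0% and 26.5%, EEF2 27.97% and 22.9%, and PABPC1 7.78% and 26.1%.

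Together the 10 genes held 0.203% of IgG counts (0.198 to 0.208, exact 95% binomial interval) and 0.337% of Flag counts (0.332 to 0.342). The ratio of their sums was 1.66 (1.62 to 1.71), and 1.33 (1.29 to 1.37) without PABPC1. In the IgG library EEF1A1 and EEF2 made up 36.0% and 27.97% of the members' counts and PABPC1 7.78%. In the Flag library PABPC1 made up 26.1%, close to EEF1A1 at 26.5% and above EEF2 at 22.9%. The 5 elongation factor mRNAs summed to a ratio of 1.21 (1.17 to 1.25) and the other 5 to 3.35 (3.17 to 3.55). EEF1A1 held 4917 and EEF2 4250 of the 10607 Flag counts of the first group, whose median log2 ratio was -0.12. PABPC1 held 4837 of the 7929 Flag counts of that second group, and the 4 genes left without it had a ratio of 2.06 (1.92 to 2.22).

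Several of these genes have many processed pseudogenes, to which reads of the parent can be assigned. The files name 72 numbered pseudogenes of the members, 38 of them for EEF1A1, 13 for PABPC1 and 8 for EEF1G. Only 10 of the 72 had counts, 3 in all in the IgG library and 30 in the Flag library, and none reached 20. EEF1A1P5 had the most, with 1 IgG and 8 Flag counts, and EEF1A1P10 had 0 and 6. Adding them to the parents gave ratios of 1.23 for EEF1A1, 0.689 for EEF1B2, 0.873 for EEF1D and 5.56 for PABPC1, and changed no call. Estimated counts were whole within 0.01 in both libraries for 6 members and fractional in at least 1 library for EEF1A1, EEF1D, EEF1G and GNB2L1, so part of the reads of those 4 was divided with other genes. The 7 snoRNA names that lie in introns of members (SNORA41 and SNORD51 in EEF1B2, SNORD37 in EEF2, SNORA31 in TPT1, SNORD95 and SNORD96A in GNB2L1, SNORA55 in PABPC4) had 0 counts throughout. A count of 0 leaves room for 3 counts, or 0.879 CPM in the IgG and 0.546 CPM in the Flag library. That bound covers counting error only. Whether RNAs as short as snoRNAs could be counted in these libraries was not tested, so it sets no limit on their level. The antisense gene TPT1-AS1 had 1 and 3 counts, against 221 and 936 for TPT1.

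**Figure D4:**
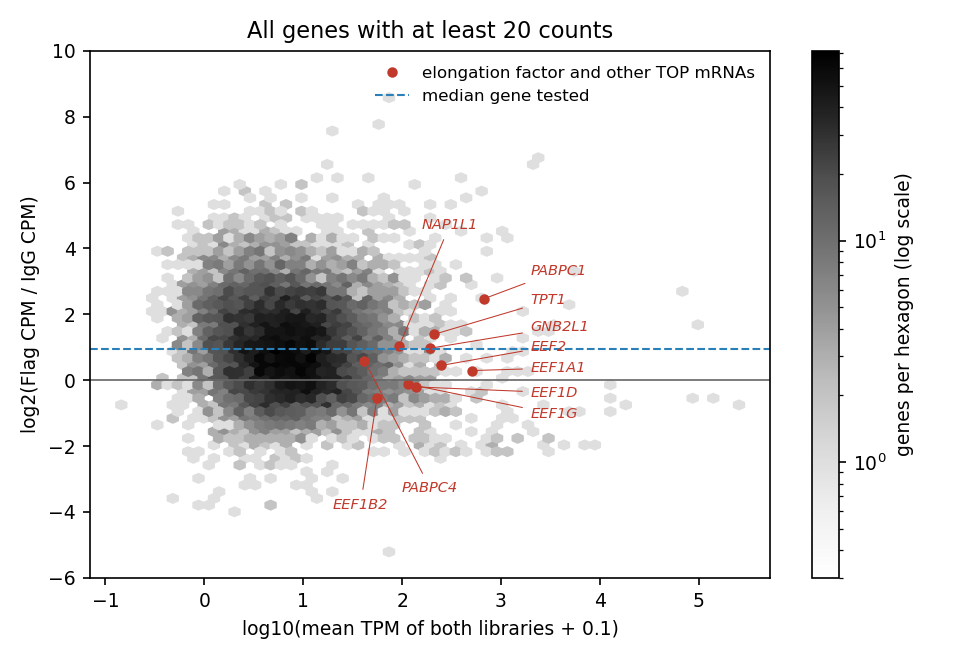
log2 ratio of Flag CPM to IgG CPM against log10 of the mean TPM of both libraries (plus 0.1) for the 10811 genes tested, as counts of genes per hexagon, with the 10 genes in red. The dashed line is the median gene at 0.95; PABPC1 lies at 2.48 and EEF1B2 at -0.55.

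For each member the protein-coding gene nearest to it in log2(TPM + 0.1) over both libraries was found, as a description of genes with like levels. For 5 of the 10 this was a ribosomal protein gene, RPS2 for EEF1A1, RPL23 for EEF2, RPL8 for EEF1D, RPL7A for EEF1G and RPS7 for GNB2L1. RPS7, the closest of these, had 95.7 TPM in the IgG and 285.5 in the Flag library, at a log2 distance of 0.037. TPM4 was nearest to TPT1 (87.6 and 358 TPM), EWSR1 to PABPC4, APP to NAP1L1 and C15orf52 to EEF1B2. PABPC1 had the farthest neighbour, HDGF, at a distance of 0.46, with 189.9 and 1599 TPM.

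Other non-ribosomal TOP mRNAs spanned a wider range than the 10 genes. Of 17, all tested, 4 were enriched (23.5%, against 28.7% of all genes tested) and 1 was depleted. The median log2 ratio was 0.14. The enriched genes were EIF3E, of the initiation factor eIF3 (6.38, 4.97 to 8.31, and 10.95 by TPM), the nuclear import receptor gene IPO7 (3.47, 2.96 to 4.09), EIF4B, a helicase cofactor (2.82, 2.54 to 3.13), and the splicing regulator gene HNRNPA1 (2.66, 2.46 to 2.88). EIF3A, the largest subunit of the same eIF3 complex, was 4.36-fold lower in the Flag library, with 16994 IgG and 6272 Flag counts. It was abundant, at 1141 TPM in the IgG and 261 TPM in the Flag library. Of the 327 genes with a mean TPM of at least 100, 57 (17.4%) were depleted. VIM, which encodes vimentin, had a ratio of 0.95 (0.891 to 1.01), BTF3, of nascent chain handling, 0.879, and EIF3F 0.863. With TMM scaling EIF3E was the 1 gene still enriched and EIF3A stayed depleted.

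Ribosomal protein mRNAs, the bulk of the TOP class, lay lower than the 10 genes. Of 79, 4 were enriched (5.06%, against 28.7% of all genes tested) and 1 was depleted. The median log2 ratio was -0.21, and 7 of the 79 lay above the median gene. RPL24 (5.89) and RPL5 (4.41) were highest, and RPS12 was low at 0.367 (0.258 to 0.518) and past the depletion threshold by TPM (0.365). With TMM scaling 2 were enriched and 26 depleted, where 12% of all genes tested were enriched and 6.12% depleted.

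The annotated start was also set against the ratio outside these lists. Of the genes tested, 8571 were matched to a start, and 671 of them (7.83%) had a TOP-type start. Leaving out ribosomal protein genes and the 10 members, 618 genes with a TOP-type start had a median log2 ratio of 0.77, with 147 enriched (23.8%). The other 7883 had a median of 0.96, with 2293 enriched (29.1%). The 6 matched members with an annotated TOP-type start had ratios from 0.684 for EEF1B2 to 2.63 for TPT1. EEF1B2 also has a listed start that begins with A, and the next lowest ratio was 1.22 for EEF1A1. Which start was used in these cells was not tested.

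**Figure D5:**
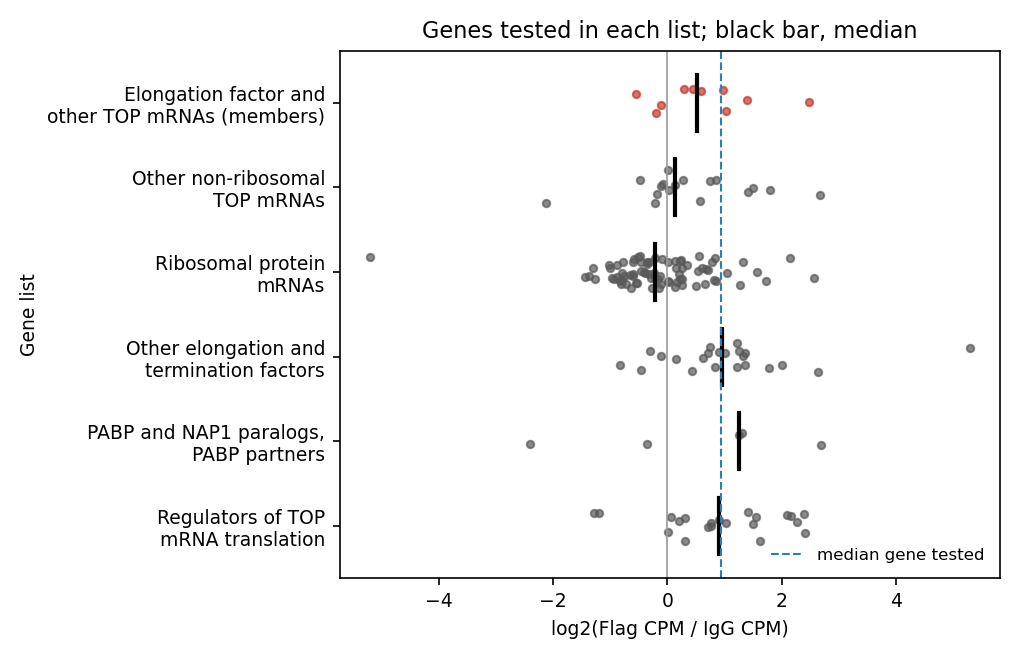
log2 ratio of Flag CPM to IgG CPM of each gene tested, by list, with vertical jitter; black bars are list medians and the dashed line is the median of all genes tested (0.95). Medians are 0.52 for the 10 genes, 0.14 for other non-ribosomal TOP mRNAs, -0.21 for ribosomal protein mRNAs, 0.95 for other elongation and termination factors, 1.25 for the paralog list and 0.90 for the regulators.

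Factors that work with the elongation factors had a median log2 ratio of 0.95, the same as all genes tested. Of 30 symbols 28 were found and 22 tested, with 3 enriched (13.6%, against 28.7% of all genes tested) and 0 depleted. The counting interval of DNAJC24 was wide. DNAJC24 and DPH3 take part in making diphthamide, the modified histidine of eEF2. DNAJC24 had 2 IgG and 126 Flag counts, a ratio of 39.1 (10.6 to 326.4), and DPH3 had 4 and 40, a ratio of 6.21 (2.24 to 23.9). DPH1, of the same pathway, had a ratio of 0.724 (0.367 to 1.44), and DPH2 (1.35), DPH5 (1.86) and DPH7 (1.10), named after their values were seen, were not called. By TPM the ratios of DNAJC24 (13.4), DPH3 (3.92) and DPH5 (1.15) were lower, DPH1 turned to 1.61 and DPH7 to 0.770. ABCE1, which encodes the ribosome recycling factor, had a ratio of 4.02 (2.97 to 5.54). With TMM scaling DPH3 and ABCE1 lost their calls.

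EEF1A2 encodes the tissue-restricted second form of eEF1A. It had 350 IgG and 317 Flag counts, a ratio of 0.562 (0.481 to 0.656), and was depleted with TMM scaling (0.328). EEF1A1 exceeded it by a factor of 2.18 (1.85 to 2.56). The eEF1A2 mRNA was thus lower in the Flag library by CPM while that of EEF1A1 was higher with total counts and lower with TMM scaling. EIF5A, which encodes a hypusine-bearing elongation factor, had a ratio of 1.53 (1.36 to 1.73), the mitochondrial elongation factor gene TUFM 0.929 (0.773 to 1.12), and the termination factor gene ETF1 2.49 (1.96 to 3.2), which the TPM rule, with no interval, called enriched at 2.48.

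Paralogs and partners of PABP and NAP1L1 were few at this depth. Of 16 genes 5 were tested, with 2 enriched and 1 depleted, where 28.7% of all genes tested were enriched and 1.32% depleted. PAIP1, a PABP-interacting activator of translation, had 19 IgG and 198 Flag counts, a ratio of 6.47 (4.03 to 11.0). PABPN1, the nuclear poly(A)-binding protein gene, had a ratio of 2.47 (2.05 to 3.0) with a fractional Flag count, and lost its call with TMM scaling (1.44). PAIP2, a PABP-binding repressor, had 2.37 (1.55 to 3.74). PABPC1L, a germline-associated PABP gene, had 33 IgG and 10 Flag counts, a ratio of 0.188 (0.0827 to 0.391), and was depleted. NAP1L4 had 104 and 130 counts, a ratio of 0.776 (0.595 to 1.01), and by TPM, at 0.402, it was past the depletion threshold. NAP1L1 exceeded it by a factor of 2.62 (1.95 to 3.52) by counts and 4.78 by TPM. PAIP1 (4.21) and PAIP2 (1.20) were lower by TPM than by counts.

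Genes that regulate TOP mRNA translation had 8 enriched of 21 (38.1%) and 0 depleted, against 28.7% and 1.32% of all genes tested. Their median log2 ratio was 0.90, against 0.95 for all genes tested. LARP1, which binds the TOP cap, had 490 IgG and 2309 Flag counts, a ratio of 2.92 (2.65 to 3.23). Its relatives LARP4 (5.26, 4.21 to 6.64) and LARP4B (4.83, 3.79 to 6.24), whose proteins bind PABP, and SSB, which encodes the La protein (4.24, 3.58 to 5.06), were enriched too. So were the S6 kinase gene RPS6KB1 (5.32, 3.70 to 7.89), the cap-binding protein gene EIF4E (4.46, with fractional counts), the mTORC1 activator gene RHEB (2.81) and TIAL1, of a TOP-binding protein (3.06, but 1.96 by TPM, where its call was lost). EIF4EBP1, which encodes an inhibitor of EIF4E, had a ratio of 0.408 (0.230 to 0.710), past the depletion threshold by TPM (0.403), and TSC2, of the complex that restrains RHEB, 0.433 (0.337 to 0.556). The ratios of CNBP (1.04) and RPTOR (1.01) were under that of the median gene. With TMM scaling 4 were enriched (LARP4, LARP4B, SSB and RPS6KB1), and EIF4EBP1 (0.238) and TSC2 (0.253) were depleted. That scaling called 12% of all genes tested enriched and 6.12% depleted.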

How the data were processed

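The authors deposited expected counts in RSEM's gene-level layout, per the file headers, with no normalization. TPM in the deposited tables is scaled by effective length, and the length columns, in bases, belong to the same layout, per the file headers. The submitters' processing notes name RSEM, STAR, GRCh37 and hg19, with no roles. Annotation release and strand setting were not given in the sources used here, so antisense reads cannot be told apart. Expected counts were rounded, and a gene entered with 20 or more counts in all. Ratios, intervals (Clopper-Pearson, SciPy 1.17.1) and thresholds stand in the text. Factors between genes are odds ratios with exact conditional 95% intervals. Where a gene had 0 counts, 3 stood in for it. The labels name no molecular identifiers, so PCR copies may be counted as separate molecules. No p-value was computed. The interval rule was tested on simulated Poisson counts, which hold counting error only, so that test does not bear on replicate variation or PCR copies. TMM came from edgeR 4.0.16 and median-of-ratios scaling from DESeq2 1.42.0, over all genes.

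Members and lists were chosen with earlier results of these data known. Named genes are the 10 members, the 2 pseudogenes of most counts per member, the 1 nearest gene per member, up to 4 genes with the highest lower bounds and 4 with the lowest upper bounds of the interval in each list (2 for ribosomal proteins) and the called genes of lists of 25 or fewer. 1 gene that this rule names is not reported here.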

Additional observations from a re-analysis of the deposited data

How the results depend on the processing

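Of the 13 alternatives, 6 moved the count of enriched members from 2 by over 1.5 times. It was 1 with TMM scaling, with median-of-ratios scaling, with totals that left out mitochondrial RNAs and the 10 top genes and at the 4-fold threshold, and 4 with totals over protein-coding genes and at the 1.5-fold threshold. No member was depleted under any of the 13. EEF1B2 was close to that call, with upper ends of 0.506 with TMM scaling and 0.502 with median-of-ratios scaling, against a threshold of 0.5. The members' median log2 ratio of 0.52 became -0.26 with TMM scaling, -0.27 with median-of-ratios scaling, 0.28 with totals that left out mitochondrial RNAs and the 10 top genes and 0.92 with protein-coding totals. A scaling adds the same amount to all genes, so it leaves the members' median below that of all genes tested by construction. Without the filter on low counts 17302 genes entered and the median gene came to 0.53, next to 0.52 for the members. A count of 0 was replaced by 3 there too, so a gene with 0 IgG and 1 Flag count had a ratio of 0.207. That median thus depends in part on the replacement and does not show that the members lie at the typical gene. Over all genes, 3100 enriched and 143 depleted became 1293 and 662 with TMM scaling, 1269 and 675 with median-of-ratios scaling, 2412 and 228 with totals that left out mitochondrial RNAs and the 10 top genes, 4275 and 86 with protein-coding totals, 4077 and 536 with TPM plus 1, 4780 and 712 with TPM plus 0.1, 3228 and 218 with no filter, 4323 and 298 at 1.5-fold and 924 and 24 at 4-fold. Of 80 member ratios under the 8 alternatives that can move a ratio, 48 lay outside the counting interval of the ratio with total counts. The other 5 alternatives leave the members' ratios as they are and can change only intervals, calls or which genes enter. No paired analysis was possible because each group has 1 library. Depth limits EEF1B2 and PABPC4 most, at 137 and 168 IgG counts.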
